A study of Caenorhabditis elegans with 2 samples.

Results

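In embryos of the nematode Caenorhabditis elegans, ChIP-seq (sequencing of DNA recovered by chromatin immunoprecipitation) for the eGFP-tagged nuclear hormone receptor NHR-28 gave 2801 regions inside genes, on coding exons or 3' UTRs, far from any protein-coding 5' end. They were chosen by position alone from 29976 regions on the 6 nuclear chromosomes, out of 30000 in the authors' pooled list. A region was taken when its summit, the position of highest signal, lay in a coding exon or 3' UTR of a protein-coding gene and more than 1000 bp from any protein-coding 5' end, with no tRNA or snoRNA gene within 500 bp. Whole embryos of mixed stages were used. Their strain was OP317, with the genotype unc-119(ed3) III; wgIs317, in which wgIs317 is an inserted transgene coding for eGFP-tagged nhr-28. The factor was thus read through a tagged transgene copy, and no file compares its level with that of untagged NHR-28. There were 2 libraries, biological replicates 1 and 2 by their labels, made from fragments of 150 to 350 bp. They form 1 group with the same transgene, so regions were compared with other regions and replicates with each other, not conditions. In whole embryos, binding in few cells and weak binding in many cannot be told apart.

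Nuclear hormone receptors are transcription factors with a zinc-finger DNA-binding domain, many of them controlled by small lipophilic ligands, and the family is greatly expanded in C. elegans. Such factors are mostly studied at promoters and enhancers, where they recruit coactivators or corepressors. Coding exons and 3' UTRs are set first by the protein and by post-transcriptional regulation, although regulatory elements inside genes are known. The question put to these regions was which of them were found in both libraries and how strong they were.

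The replicate lists held 14746 regions for replicate 1 and 4556 for replicate 2, against 30000 in the pooled list, and 238 regions passed the authors' irreproducible discovery rate (IDR) step, which keeps regions that both replicates rank alike. Read totals are not given in the lists, so sequencing depth is unknown. The pooled and replicate lists keep background on purpose: 56.1% of all nuclear pooled regions had their summit in a region of neither replicate. Signal is the authors' strength of a region against the control, and its scale belongs to each list.

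Of the 2801 regions, 2120 (75.7%) had their summit in a coding exon and 681 (24.3%) in a 3' UTR. Regions of both replicates covered the summit of 53 (1.89%, Wilson 95% interval 1.45 to 2.47), here called found in both, against 4.7% of all nuclear regions. A single one lay in an IDR peak, against 0.721% of all nuclear regions. That region, in the gene pks-1, also had a q-value of 0.05 or less in both replicates, as did 0.497% of all nuclear regions. None of the others reached this in either replicate, while 1.3% of all nuclear regions did. Intervals here and below cover counting error only, and neighbouring regions are not independent. All nuclear regions, here and below, include those within 500 bp of a tRNA or snoRNA gene.

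The sequence under the 5 strongest coding exon summits found in both replicates, among the chromosomes from II to X, is shown because these are, on those chromosomes, the strongest positions inside coding sequence that both libraries gave. Each is read from the RefSeq sequence of WBcel235 (ce11) on the coding strand, 29 bases centred on the summit, with the codon that holds the summit in capitals.
pks-1: ttccactctaacCTTatccaagagactca
alx-1: caggccaaccgcaaCCAatgttccaacca
yif-1: gctctggatcgaaaGCGaaacaatttatg
clec-264: ttgaatacaattgtATTccggatgggaac
bbs-2: ggttcaggaaagcTTCacaattgatgcat
They span chrX:5429520-5429548 on the plus strand, chrIII:9962759-9962787 on the plus strand, chrV:10050377-10050405 on the minus strand, chrV:20847772-20847800 on the minus strand and chrIV:7936300-7936328 on the plus strand. The capitals mark codon 3842 of 7753 in pks-1, 822 of 883 in alx-1, 354 of 381 in yif-1, 375 of 387 in clec-264 and 507 of 715 in bbs-2, counting the stop codon and taking the longest annotated coding sequence over the summit.

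The region in pks-1 stood far above the others. pks-1 encodes a polyketide synthase, a very large multidomain enzyme that makes nemamides, hybrid polyketide and nonribosomal peptide molecules. The region, chrX:5429372-5429695, had a pooled signal of 71.9, with 43.1 in replicate 1 and 32.7 in replicate 2. Its q-value was 0.00809 in replicate 1 and 0.0218 in replicate 2, and the summits of the replicates lay 8 bp apart. The next strongest of the 2801 regions had a pooled signal of 42.0. Among the nuclear IDR peaks the pks-1 peak was of middle strength, with 119 of 216 stronger. Its summit lay in coding exon 22 of 30, an exon of 202 bp, 15724 bp into a gene of 28152 bp and 15184 bp from the nearest annotated 5' end of any protein-coding transcript. Around this summit, to 100 bp on either side, GC content was 47.8%, against a median of 37.8% over all 2801 regions.

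pks-1 held 3 regions in all, and the other two were weak. Both lay in the long coding exon 23, of 10633 bp. At the first, the signal was 19.9 in the pooled list and 11.96 in replicate 1. At the second, it was 16.1 in the pooled list and 13.1 in replicate 1. Neither summit lay in a region of replicate 2. The strong signal was therefore at 1 position and did not extend along the gene in these lists.

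**Figure D1:**
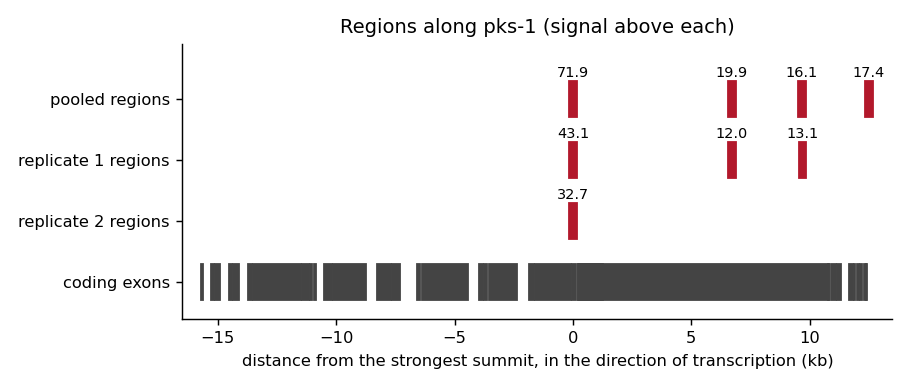
Regions along pks-1, drawn by distance in kb from the strongest summit in the direction of transcription, with coding exons of all isoforms below and each region's signal above it. The region at 0 is the only one in all 3 lists, with 71.9 in the pooled list, 43.1 in replicate 1 and 32.7 in replicate 2. The region of 17.4 at the right edge has its summit just beyond the annotated gene and is not counted.

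After pks-1, the 19 other strongest regions found in both replicates had pooled signals from 29.2 to 42.0, and none of them had a q-value of 0.05 or less in either replicate. Of the 20, 15 lay in coding exons and 5 in 3' UTRs, while 75.7% of all 2801 regions lay in coding exons. Chromosome I held 6 of the 20, 11 of the 53 found in both and 479 of all 2801.

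In 3' UTRs the strongest was at bed-2, a gene for a BED zinc-finger protein, with 42.0 in the pooled list, 26.4 in replicate 1 and 14.2 in replicate 2 (chrIII:11463803-11464126). Its replicate 1 q-value was 0.0698, while that of replicate 2 was 0.945, so the signal was high in one library and close to the list's minimum of 13.8 in the other. GC content at this summit was 57.2%. At syd-9, a zinc-finger gene studied at synapses, the signal was 36.6 in the pooled list, 21.2 in replicate 1 and 16.4 in replicate 2. cmd-1, which encodes calmodulin, the calcium sensor of many kinases and channels, had 35.1 in the pooled list, 11.4 in replicate 1 and 25.1 in replicate 2. Its order was the reverse of bed-2, with replicate 2 high and replicate 1 close to that list's minimum of 10.4. C18D11.1 had 33.8 in the pooled list, 12.4 in replicate 1 and 14.4 in replicate 2. ints-3, for a subunit of the Integrator complex that processes small nuclear RNAs, had 30.4 in the pooled list, 12.3 in replicate 1 and 15.1 in replicate 2.

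Among coding exons, alx-1, the worm ALIX gene of the ESCRT membrane-remodelling pathway, had 36.01 in the pooled list, 17.1 in replicate 1 and 18.00 in replicate 2. Its q-values were 0.627 in replicate 1 and 0.708 in replicate 2, in the last coding exon of 9 (chrIII:9962611-9962934). Y37H9A.1 had 35.8 in the pooled list, 22.8 in replicate 1 and 14.5 in replicate 2. The summit at yif-1, a gene of vesicle transport at the Golgi, lay in the last of 7 coding exons with 35.8 in the pooled list, 13.3 in replicate 1 and 20.2 in replicate 2 (chrV:10050229-10050552). Both alx-1 and yif-1 thus had their summit near the end of the coding sequence. So did the C-type lectin gene clec-264, in its last coding exon of 5, with 34.9 in the pooled list, 21.3 in replicate 1 and 15.2 in replicate 2. The last coding exon held 7 of the 36 coding exon regions found in both (19.4%), near the 18.7% of all 2120. bbs-2, for a subunit of the BBSome that carries cargo in cilia, had 33.8 in the pooled list, 16.9 in replicate 1 and 15.4 in replicate 2 at exon 7 of 11.

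The other coding exon regions of the 20 had pooled signals of 29.2 to 33.6. blmp-1, the worm Blimp-1 zinc-finger repressor that times development, had 33.6 in the pooled list, 16.2 in replicate 1 and 19.1 in replicate 2. At nhr-173, itself a nuclear hormone receptor gene, the signal was 31.0 in the pooled list, 11.8 in replicate 1 and 16.2 in replicate 2, with the summit 1304 bp from the 5' end. gtf-2H4, for a subunit of the general transcription factor TFIIH, had 31.4 in the pooled list, 10.9 in replicate 1 and 20.05 in replicate 2. tftc-3, for a subunit of TFIIIC that recruits RNA polymerase III, had 29.2 in the pooled list, 13.4 in replicate 1 and 16.4 in replicate 2. smg-2, the UPF1 helicase of nonsense-mediated decay, had 29.3 in the pooled list, 14.04 in replicate 1 and 17.5 in replicate 2. In gtf-2H4, nhr-173 and C06C3.3 the replicate 1 signal was below that list's median of 12.7, as in the 3' UTRs of cmd-1, C18D11.1 and ints-3. In nhr-173 the replicate 2 signal was near that list's median of 15.8. osm-7, which encodes a secreted Notch co-ligand, had 32.9 in the pooled list, 15.5 in replicate 1 and 15.2 in replicate 2. Also among the 20 were unc-14, vep-1 and C06C3.3, with pooled signals of 30.03 to 30.7. Their replicate 1 signals were 12.1 to 13.7 and their replicate 2 signals 16.9 to 19.04.

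The other 33 regions found in both replicates reached at most 29.1 in the pooled list. They included the 3' UTRs of unc-1, the stomatin-like gene (29.1), glp-4, the valyl-tRNA synthetase gene (28.3), and her-1, which encodes a secreted male-determining protein (26.7). The coding exons of dos-3, for a Notch co-ligand (29.02 pooled, 19.4 in replicate 1 and 23.7 in replicate 2) and evl-14, the worm Pds5 cohesin factor (26.1 pooled), were among them. These genes were named after their values were seen. dos-3 and pks-1 were the only regions of the 53 with a q-value of 0.5 or less in both replicates.

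Across the 53 regions the signals of the libraries were hardly related once pks-1 was set aside. Replicate 1 signal ran from 10.6 to 43.1 with a median of 12.9, and replicate 2 signal from 13.8 to 32.7 with a median of 15.4. Pearson's r was 0.514 and Spearman's rho 0.0565 over the 53 regions, and without pks-1 r was -0.03 and rho 0.0010. For all 1195 nuclear regions found in both replicates but outside IDR peaks, r was 0.267 and rho 0.302. These correlations describe regions that share 2 libraries, a control and base composition, and the 53 regions cover a narrow range of signal. A q-value of 0.5 or less was reached by 6 of the 53 in replicate 1, by 7 in replicate 2 and by the 2 named above in both. The summits of the replicates lay a median of 48 bp apart in the 53 regions and 50 bp apart in all 1408 nuclear regions found in both.

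**Figure D2:**
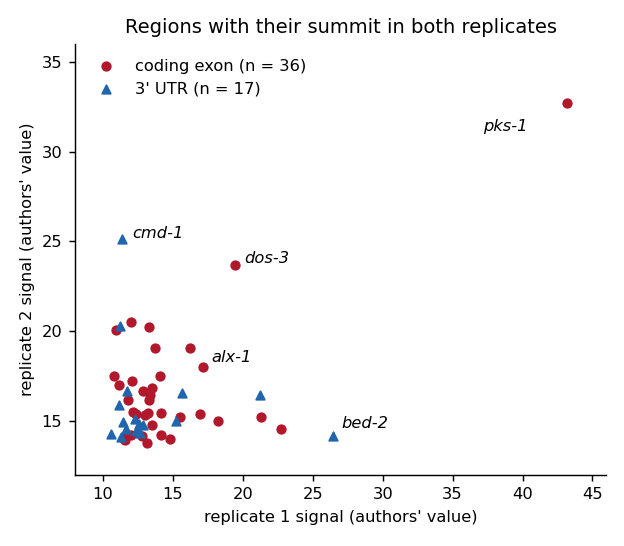
Signal in replicate 1 (x axis) and replicate 2 (y axis), the authors' values on each list's own scale, for the 53 regions found in both, with circles for the 36 coding exon and triangles for the 17 3' UTR regions. pks-1 lies alone at 43.1 and 32.7, while bed-2 and cmd-1 are high in 1 replicate only and most points lie near the lower limits of both lists.

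Some strong regions missed one replicate, and their pooled signals lay within the range of the 20 above. The 3' UTR of algn-12, a mannosyltransferase gene of N-glycan assembly, had 37.3 in the pooled list and 20.5 in replicate 2, with no replicate 1 region. F45E1.4 had 34.5 in the pooled list and 15.6 in replicate 1 alone. F58G1.7 had 33.8 and 25.7 in the pooled and replicate 2 lists, and mnk-1, a gene for a MAP kinase interacting kinase, 33.7 and 20.6 in the same lists. phyh-1, a phytanoyl-CoA hydroxylase gene, had 33.7 in the pooled list and 19.7 in replicate 1 alone. In 3 of these 5 genes the missing library was thus replicate 1, which has the longer list.

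Taken by library, 927 of the 2801 regions (33.1%) had their summit in a replicate 1 region, against 35.3% of all nuclear regions. For replicate 2 this was 309 (11.03%), against 13.3% of all nuclear regions. A further 1618 (57.8%) lay in a region of neither. The presence of the libraries was inversely related: of the 309 regions in replicate 2, 53 (17.2%, interval 13.4 to 21.8) were also in replicate 1, while of the 2492 not in replicate 2, 874 (35.1%, interval 33.2 to 37.0) were in replicate 1. Among the 27175 other nuclear regions these shares were 36.8% and 35.3%. All regions of the pooled list have a pooled signal of at least 12.8, and the part of this limit in the inverse relation was not tested.

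The replicate lists themselves, each taken by the same rule on its own summits, gave 1449 regions in replicate 1 (9.84% of its nuclear regions) and 371 in replicate 2 (8.19%). Of the 1449, 47 (3.24%) had their summit in a replicate 2 region, against 9.14% of all nuclear replicate 1 regions. Of the 371, 45 (12.1%) had theirs in a replicate 1 region, against 30.01% of all nuclear replicate 2 regions. At q-values up to 0.05 there were 2 of the 1449, against 2.21% of all nuclear replicate 1 regions, and 1 of the 371, against 4.70% of all nuclear replicate 2 regions.

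The share found in both replicates was 1.70% in coding exons (36 of 2120, interval 1.23 to 2.34) and 2.50% in 3' UTRs (17 of 681, interval 1.56 to 3.96). These intervals overlap. The other annotation classes had 3.07% in introns, 3.66% in intergenic DNA, 6.18% in promoters, within 1000 bp of a 5' end, and 12.8% in non-coding RNA exons. The intron and intergenic shares lay inside the 3' UTR interval. Unlike the coding exon and 3' UTR regions, these other classes keep regions within 500 bp of a tRNA or snoRNA gene. The part of this unlike rule in the shares was not tested. No 3' UTR region lay in an IDR peak, 0 of 681, which by the limit of 3 counts for a count of 0 allows a share of up to 0.441% (Wilson upper bound 0.561%).

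**Figure D3:**
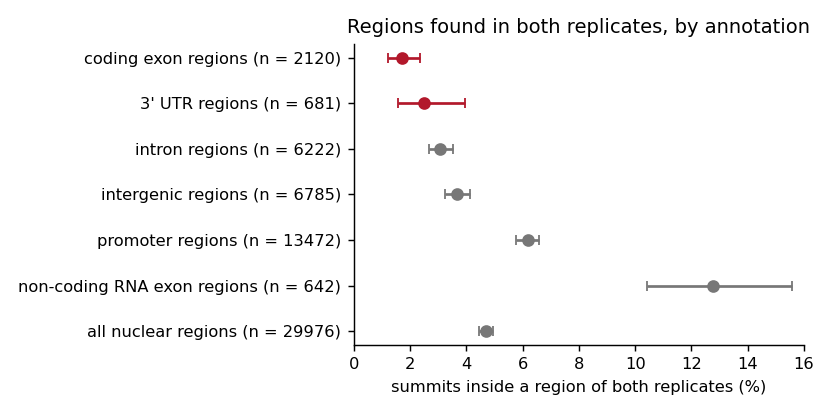
Percentage of summits inside a region of both replicates for each annotation class, with Wilson 95% intervals as bars. Only the coding exon and 3' UTR regions leave out summits within 500 bp of a tRNA or snoRNA gene. Coding exon regions, at 1.70%, and 3' UTR regions, at 2.50%, have the lowest values, and all nuclear regions stand at 4.70%. The 3' UTR interval includes the intron and intergenic values.

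Pooled signal told less of a difference at the middle of the list than at its top. The median was 16.4 (quartiles 14.4 and 19.5) in the 2801 regions and 16.7 (14.5 and 20.3) in all nuclear regions. A signal over 30 was reached by 34 of the 2801 (1.21%), against 1349 of all nuclear regions (4.50%), and the 99th percentile was 30.4 against 48.1. Coding exon and 3' UTR regions made up 9.34% of the nuclear list, but 6.88% of its 5000 strongest regions, 1.7% of its 1000 strongest and 2 of its 500 strongest. Those 2 were pks-1 and bed-2.

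**Figure D4:**
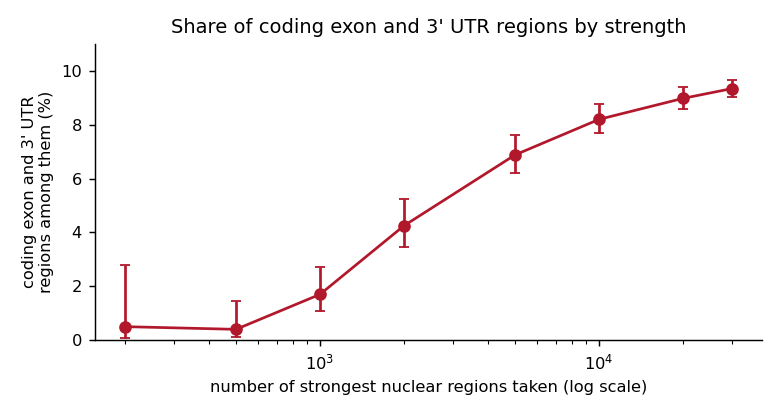
Percentage of coding exon and 3' UTR regions among the strongest nuclear regions, against the number of strongest regions taken (log axis), with Wilson 95% intervals as bars. The share is 9.34% over the whole list and 1.7% among the 1000 strongest.

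At the same pooled signal, the share found in both replicates was close to that of other nuclear regions. Between 25 and 30 it was 17.6% (24 of 136, interval 12.2 to 24.9) against 18.3% of 1569 other regions. Between 30 and 40 it was 50% (16 of 32, interval 33.6 to 66.4) against 55.0% of 798. Between 20 and 25 it was 1.77% (8 of 451, interval 0.902 to 3.46) against 2.56% of 4456. In each of these ranges the other regions' value lay inside the interval of the coding exon and 3' UTR regions. Such an interval does not show that the shares are equal. Pooled signal comes from the same 2 libraries that decide which regions are found in both, so the 2 measures are not independent.

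**Figure D5:**
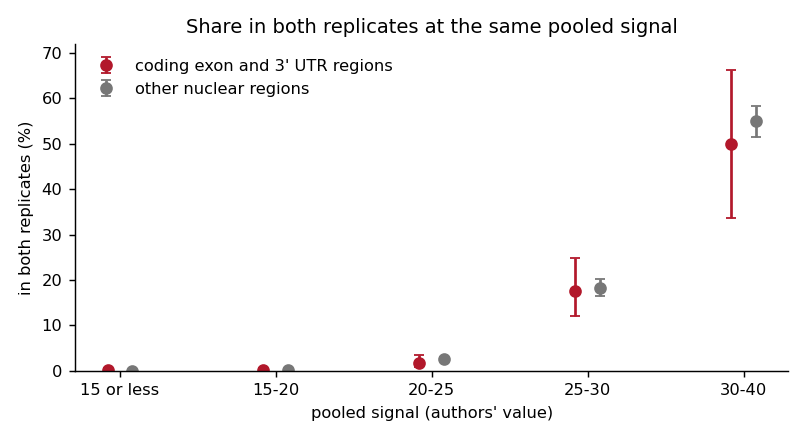
Percentage of regions found in both replicates in 5 ranges of pooled signal, for coding exon and 3' UTR regions (red, left) and other nuclear regions (grey, right), with Wilson 95% intervals as bars. Between 25 and 30 the values are 17.6% and 18.3%, and between 30 and 40 they are 50% and 55.0%. The 2 red and 517 grey regions above 40 are not drawn.

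The distance limit of 1000 bp did not mark a step. Among summits in coding exons and 3' UTRs at any distance, away from tRNA and snoRNA genes, 1.46% of the 890 between 1000 and 1500 bp from a 5' end were found in both replicates, against 1.54% of the 1234 just short of the limit, between 500 and 1000 bp. Within 250 bp of a 5' end it was 3.26% (32 of 982, interval 2.32 to 4.56). Beyond 4000 bp it was 2.05% of 342 regions, and the median signal there was 16.8 against 16.4 within 250 bp.

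Per length of sequence, these regions were sparser than the list as a whole, with the exception of 3' UTRs. Coding exon and 3' UTR sequence that met the distance rules came to 14.6 Mb, 14.6% of the nuclear genome, and held 191 regions per Mb against 299 per Mb over the whole nuclear genome. Coding exons had 167 per Mb and 3' UTRs 350 per Mb. Base composition moved with this: the median GC content over 100 bp to each side was 39.3% in coding exon and 32.8% in 3' UTR regions, 37.8% over the 2801 and 35.3% over all nuclear regions. At positions every 100 bp along the same eligible sequence the medians were 39.8% in coding exons and 32.3% in 3' UTRs. The part of GC content in the densities was not tested. By chromosome the density ran from 179 regions per Mb on II to 208 on III, with 191 on V, 192 on I, 190 on IV and 188 on X. Regions found in both replicates numbered 12 on V, 11 each on I and III, 8 on X, 6 on II and 5 on IV. V also held the most coding exon and 3' UTR regions, 534. The share found in both ran from 1.19% on IV to 2.301% on III, with 2.25% on V. Over all nuclear regions of these chromosomes it was 3.75% on IV, 4.99% on III and 4.06% on V. On each chromosome the share was below that of all its nuclear regions.

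Within genes, the regions lay toward the 3' end, as the rule keeps summits away from 5' ends. The median summit was 76.5% of the way along its gene and 1905 bp from the nearest 5' end. Coding exons with a summit had a median length of 229.5 bp, and 397 of the 2120 coding exon summits (18.7%) were in the last coding exon. Of the 2801 summits, 15 lay within 2000 bp of the summit of another IDR peak, and none of these was found in both replicates. This count was not made over all nuclear regions, and with 1.89% of the 2801 found in both, nothing is read from it. Genes of class ncRNA lay within 200 bp of 50 summits (1.79%), against 5.62% of all nuclear summits, and 2 of the 50 were among the 53 found in both replicates.

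The 2801 regions fell in 2429 genes, which had a median length of 4324 bp against 2027 bp for all 19973 nuclear protein-coding genes. The rule fixes this direction, since a short gene has little or no sequence more than 1000 bp from a 5' end. Of these, 2109 held 1 region, and the 61 with 3 or more had a median length of 9850 bp. The genes with most regions were ncl-1, for a TRIM-NHL protein that limits nucleolar size, and unc-80, for a subunit of the NALCN sodium leak channel, with 6 each. cdh-3, a Fat-like cadherin gene, followed with 5. C05D11.8, denn-4, golg-4, B0207.5 and pxn-2, which encodes a peroxidasin of the extracellular matrix, had 4 each. Of the 53 genes with 3 regions, pks-1 and dys-1, the dystrophin gene of 30934 bp, are named because their strongest region had the highest pooled signals. The regions in ncl-1 had pooled signals of 14.3 to 22.8 and those in unc-80 13.2 to 19.0. Apart from pks-1, none of these 10 genes held a region found in both replicates, and with 1.89% of all the regions found in both, nothing is read from this count.

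Host genes were counted on 18 lists of tissue and function. Of 4872 protein-coding genes with a pooled summit on a coding exon or 3' UTR at any distance from a 5' end, 2429 (49.9%) hosted a region by the rule, given as background for the lists. Over all lists together it was 191 of 346 (55.2%). Among tissue genes it was 10 of 14 for the muscle sarcomere, 8 of 14 for basement membrane and attachment, 10 of 17 for embryonic epidermis and apical matrix, 21 of 29 for neuronal excitation and synapse and 2 of 4 for intestine and yolk. Among genes of the cell's machinery it was 11 of 20 for tubulin, spectrin and motors, 7 of 12 for transcription by RNA polymerase II, 9 of 15 for splicing, 8 of 17 for translation factors and synthetases and 9 of 17 for chaperones and protein turnover. It was 8 of 13 for maternal RNA and P granules, 14 of 23 for chromatin, 12 of 22 for cell division and 8 of 11 for fatty acid metabolism. Of the families, nuclear hormone receptors had 39 of 81, ceh homeobox genes 8 of 13, col collagens 6 of 21 and ribosomal proteins 1 of 4. Gene length enters these shares, because a short gene has little or no sequence more than 1000 bp from a 5' end. The lists were not matched for length, so no preference for a tissue or function is read from these counts.

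Listed genes held 4 of the 53 regions found in both replicates (7.55%) and 243 of all 2801 (8.68%), so their share was near that of all the regions. The 4 were in nhr-173, given above, and in 3 more genes. At ani-2, for an anillin of the germline, it lay in a coding exon with 24.7 in the pooled list, 12.1 in replicate 1 and 15.5 in replicate 2. ceh-53, a homeobox gene, had 27.5 in the pooled list, 11.1 in replicate 1 and 17.0 in replicate 2, also in a coding exon. The 3' UTR of rpl-42, for a protein of the large ribosomal subunit, had 27.8 in the pooled list, 11.6 in replicate 1 and 14.6 in replicate 2. In all 4 the replicate 1 signal was below the median of 12.7 of that list, and the other 14 lists had no region found in both. The lists do not hold every gene of their kind, and gtf-2H4 and glp-4, both given above, are on none of them. The median pooled signal of the lists' regions ran from 14.98 for ceh genes to 20.2 for intestine and yolk, apart from the single ribosomal protein region.

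Short motifs were looked for in either orientation, up to 100 bp to each side of the summit. AGGTCA is a core recognition site of many nuclear receptors, though not of all. It occurred at 110 of the 2801 summits (3.93%, interval 3.27 to 4.71), against 5.12% of all nuclear summits. The extended site AAGGTCA, which contains it, was at 1.07% against 1.57%. Neither was found at any of the 53 summits in both replicates, which by the limit of 3 counts for a count of 0 allows a share of up to 5.66% (Wilson upper bound 6.76%). TTTCAG, the consensus of the 3' end of introns, was at 40.1% against 34.8%, with 43.6% in coding exon and 29.2% in 3' UTR regions. GAGAGA was at 11.2% against 13.3%, AGATAA at 9.46% against 11.1%, and CACGTG, an E-box, at 4.32% against 3.59%. Among the 53, AGATAA was at 10 summits (18.9%, interval 10.6 to 31.4), against 11.1% of all nuclear summits. TTTCAG was at 24 (45.3%, interval 32.7 to 58.5), GAGAGA at 7 (13.2%, 6.55 to 24.8) and CACGTG at 1 (1.89%, 0.334 to 9.94). For each of these motifs the share over all nuclear summits lay inside the interval. These windows reach into introns beside the exons, and a match describes the letters there and not a bound site.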

How the data were processed

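Regions were taken as deposited. The authors called them on each replicate and on the pair together against a control, keeping background as input for IDR, per the text records deposited with the libraries. No source used here gives the aligner, caller or cutoffs, or read totals, so depth is unknown. The deposited signal value per region was used as it stands, and the authors' −log10 q-values only in the replicate lists. All values are ce11, the build of the annotation (Ensembl release 115, WBcel235) and sequence, and the ce10 lists were not used. Positions are 1-based. A pooled region counted as found in a replicate when its summit lay in a replicate region, the strongest where several did. Summits in both a coding exon and a 3' UTR (30) counted as coding exon. Python 3.11.15, pandas 2.3.3 and numpy 2.4.6 were used, with Wilson 95% intervals and no significance test, since 2 libraries of 1 group allow none between conditions. The region classifier was tested on simulated data with 0 wrong calls. The regions, gene lists and motifs were chosen with earlier results of these data known. Genes named by rule are the hosts of the IDR region, the 20 strongest found in both replicates, the 10 genes with most regions (ties by highest signal), the 5 strongest missing a replicate and listed genes found in both. unc-1, glp-4, her-1, dos-3 and evl-14 fall outside it and were chosen after their values were seen.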

Additional observations from a re-analysis of the deposited data

How the results depend on the processing

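Read depth is unknown, and the intervals of the shares cover counting error only. With a limit of 2000 bp from a 5' end 1307 regions were left, with a median signal of 16.6, and the share found in both replicates kept within its interval there and at 500 bp. Among the 10000 strongest nuclear regions the share was 6.10% (13.8% of all nuclear regions) and the median signal 21.5. Counting 1 library alone, the share was 11.03% to 33.1%. With 50 and 150 bp windows the median GC content was 38.6% and 37.2%. AGGTCA was then at 1.68% and 6.21% of summits, against 2.45% and 7.54% of all nuclear summits. Listed genes held 7.55% of the 53 regions found in both, against 8.68% of all 2801. When at least 0.5 of a region's length had to be covered, the share stayed at 1.89%. Taking the nearest replicate summit left rho at 0.0565, and without the 2 regions farthest from the replicate 1 median it was 0.0463. Counting summits in both features as 3' UTR left 74.6% in coding exons. Setting pks-1 aside was added after the data were seen. No paired analysis was possible because both libraries belong to 1 group.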
